A study of Mus musculus and Rattus norvegicus with 30 samples.

Results

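The set described here holds the abundant long noncoding RNAs (lncRNAs) of the mouse left ventricle: 43 genes whose annotated transcripts are all of the lncRNA class and whose mean level over 18 hearts was at least 10 CPM, an estimated read count scaled to the library total. They are 43 of 9469 such lncRNA genes in the files, 3935 of which had any estimated count, and of 54307 genes in all. They were chosen by their measured level, so the levels below are a description. RNA-seq in the mouse libraries of the series was made from left ventricle of wild-type (WT) mice after transverse aortic constriction (TAC), a surgical narrowing of the aorta that loads the left ventricle with pressure, or after sham surgery. For 6 weeks after surgery mice were given 332, named in the series title as an agonist of the oestrogen-related receptors (ERRs), by intraperitoneal injection, or vehicle. The groups were 5 TAC 332 hearts, 5 TAC vehicle hearts, 5 sham 332 hearts and 3 sham vehicle hearts, and the age, sex and strain of the mice are not given in the sources used here. Of 11 further genes at or above 10 CPM some but not all transcripts are lncRNA, among them Hand2os1 with a mean of 46.2 CPM and Gas5 with 29.5 CPM, and these are not members. The 4 members nearest the threshold were Gm39214 at 11.1, Gm42047 at 11.1, AW112010 at 10.6 and 4930481A15Rik at 10.3 CPM, and the 4 lncRNA genes just below it were Gm43597 at 9.81, Gm49477 at 9.78, Gm46430 at 9.48 and 9330158H04Rik at 9.46 CPM.

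An lncRNA is a transcript without a protein product that can act as RNA, or whose transcription alone can act on neighbouring genes. Neat1 is the scaffold of the paraspeckle, a nuclear body, and Malat1 is an RNA of nuclear speckles. Norad binds Pumilio proteins in the cytoplasm, and Oip5os1, the mouse Cyrano RNA, directs the decay of the microRNA miR-7. Mhrt is a heart RNA transcribed antisense to Myh7, and it is known from mice to fall under pressure overload. ERRs are nuclear receptors that switch on genes of mitochondrial and fatty acid metabolism in heart muscle.

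4 members are described by a sequence feature of the RNA or of its locus, and the stretches are shown here 5′ to 3′. Oip5os1 pairs with miR-7, whose mature mouse form, from RefSeq (GRCm38.p6 chr7:78888295-78888317, plus strand), is printed with its seed, bases 2 to 8, in capitals. The complement of that seed, GTCTTCC, occurs at 2 places in the 8300-base transcript of Oip5os1, in capitals in the 30 bases shown for each.
mmu-miR-7a-5p: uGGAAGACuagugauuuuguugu
Oip5os1 match 1: gacttcaggttttttttttaatGTCTTCCa
Oip5os1 match 2: taagaacaacaaaatcaccaatGTCTTCCa
Match 1 lies at GRCm38 chr2:119599942-119599971, plus strand, and match 2 at GRCm38 chr2:119602132-119602161, plus strand, both in exon 3. Beyond the seed, match 2 is complementary to all 12 of the last 12 bases of miR-7a-5p in one register, whereas match 1 reaches 5 of 12.

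Norad is known for repeated Pumilio elements. The motif TGTANATA, searched on the sense strand, occurred 11 times in the 4915 bases of a Norad transcript, from base 651 to base 3533, and matches 1, 6 and 11 are shown with the motif in capitals.
Norad match 1: tagaagtcctgTGTATATAatatgaaaaag
Norad match 6: tgtgtgtatacTGTATATAatggacaaata
Norad match 11: cagtgagaaagTGTACATAacggattggta
They lie on GRCm38 chr2:156392311-156392340, minus strand, on GRCm38 chr2:156391133-156391162, minus strand, and on GRCm38 chr2:156389436-156389465, minus strand, all in exon 1. Mir22hg is the host of miR-22-3p, which begins at base 297 of its 1752-base transcript, in exon 2 of 3. The mature sequence from RefSeq (GRCm38.p6 chr11:75463772-75463793, plus strand) has its seed in capitals.
mmu-miR-22-3p: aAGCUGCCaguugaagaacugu

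Mhrt is shown for its overlap with the myosin genes. Of the 828 bases of the main Mhrt transcript, 489 in one unbroken run (bases 59 to 547) were complementary to Myh7 transcripts, and 388 were also complementary to transcripts of the neighbouring Myh6, counted as bases inside shared words of 31. In the 120 bases below (GRCm38 chr14:54973912-54974031, plus strand, in exon 5 of 5), every base is complementary to Myh7 and the capitals are also complementary to Myh6.
Mhrt stretch: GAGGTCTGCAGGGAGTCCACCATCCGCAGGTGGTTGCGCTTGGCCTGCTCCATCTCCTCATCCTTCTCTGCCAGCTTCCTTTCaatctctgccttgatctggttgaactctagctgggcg
Since the library kit does not mark strand, reads from this stretch cannot be assigned to Mhrt or to the myosin mRNAs by strand.

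The libraries held 11375894 to 16599899 estimated counts, and all 43 members passed the filter on low counts, with at least 37 estimated counts in every heart. Together they took 0.316% ± 0.0267 of the estimated counts in TAC 332 hearts, 0.331% ± 0.0396 in TAC vehicle hearts, 0.332% ± 0.0229 in sham 332 hearts and 0.342% ± 0.0147 in sham vehicle hearts (SD, n = 5, 5, 5 and 3). Without mitochondrially encoded genes the shares ranged from 0.411 to 0.458% in TAC 332 hearts against 0.476 to 0.521% in sham 332 hearts, and from 0.435 to 0.493% in TAC vehicle hearts against 0.513 to 0.555% in sham vehicle hearts, without overlap. By TPM the order differed, with means of 0.08% in TAC 332, 0.0745% in TAC vehicle, 0.0763% in sham 332 and 0.0657% in sham vehicle hearts. The TPM shares overlapped, at 0.0621 to 0.0959%, 0.0542 to 0.102%, 0.061 to 0.0975% and 0.0628 to 0.0679% in the same order. The 7 cardiomyocyte markers summed to between 40500 and 70700 CPM in every heart, and the 3 atrial markers to between 0.791 and 4.71 CPM. The names of the deposited files give a lane and a sample index and name no run. From them the hearts were read as 2 batches, called runs here, with hearts 1 to 3 of every group in the first and hearts 4 and 5 in the second. No label states what set these batches apart. All 3 sham vehicle hearts therefore belong to the first run. Group means and shares, in counts or TPM, hold no run term, so those of sham vehicle rest on the first run alone. Within that run the sham 332 hearts were on lane 3 and the hearts of the other groups on lane 4, so lane and group cannot be told apart there in the comparisons with sham 332; in the second run all hearts were on lane 1. The 3 adipocyte markers summed to 0.0618 to 0.904 CPM in the 12 hearts of the first run and to 13.8 to 24 CPM in the 6 of the second, and their part in the results was not tested. The run was a term in the main fit, and 9 of the 43 members were called for it, against 34.4% of all genes tested. The p-values measure the spread between these samples, since no label states how they were drawn from animals.

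**Figure D1:**
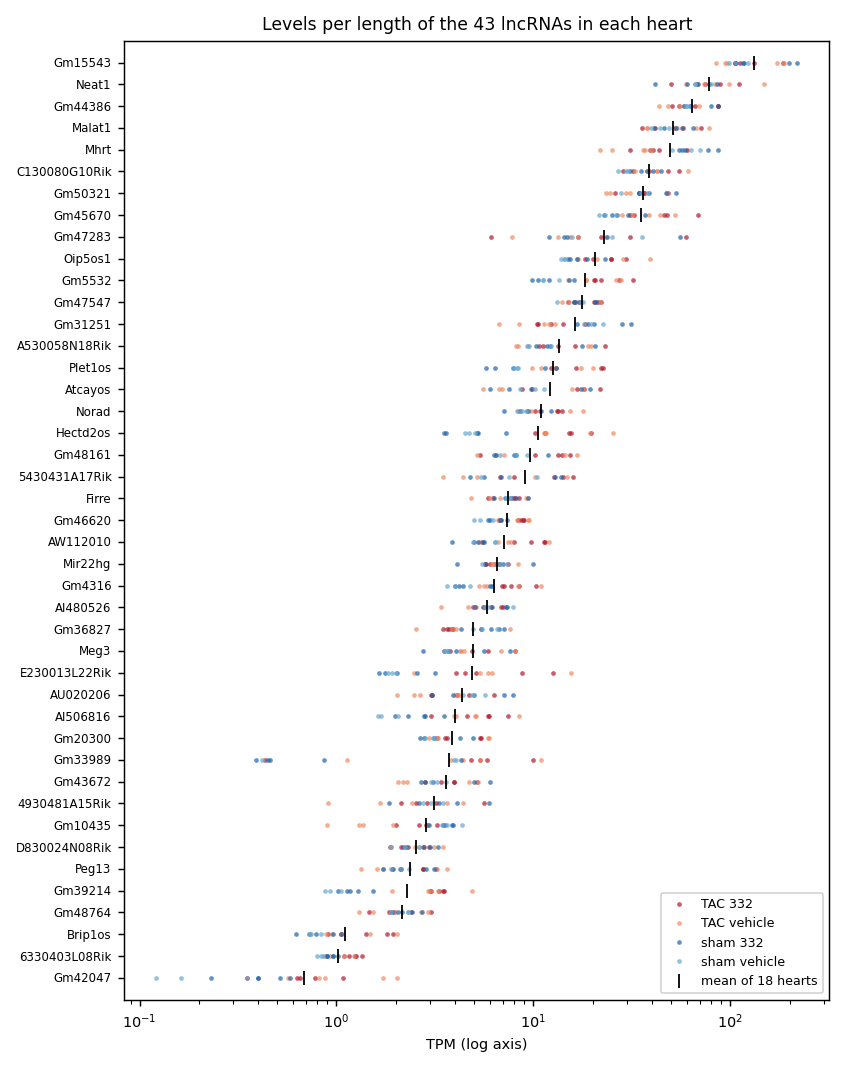
TPM (log axis) of the 43 lncRNAs in each of 18 hearts, coloured by group, with the mean of the 18 hearts as a bar. Gm15543, Neat1, Gm44386 and Malat1 lead, and the means span from 131 TPM for Gm15543 to 0.681 TPM for Gm42047.

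Levels per length were compared as TPM, which corrects for an effective length that the quantification derives from transcript length. TPM therefore need not follow annotated length alone. Gm15543 had 28.2 CPM with 361 bases and 131 TPM, and Gm50321 215 CPM with 2697 bases and 35.9 TPM. The first rank of Gm15543 rests on that correction. Gm15543, a single transcript of 361 bases, stood highest at 131 ± 41.7 TPM (mean ± SD over 18 hearts), followed by Neat1 at 77.9 ± 24.3 TPM, Gm44386 at 64 ± 13.1 TPM, Malat1 at 51.5 ± 12.4 TPM and Mhrt at 49.6 ± 17.8 TPM. These spreads overlap between neighbours in that order. C130080G10Rik (38.6 ± 9.3 TPM), Gm50321 (35.9 ± 8.56 TPM), Gm45670 (35.2 ± 12.5 TPM), Gm47283 (22.7 ± 14.7 TPM) and Oip5os1 (20.6 ± 6.65 TPM) followed. Gm15543 ranked 325 among all genes by mean TPM, and Neat1 ranked 492. In counts, which favour long transcripts, the order began otherwise: Neat1 averaged 1152 CPM, Oip5os1 312 CPM, Malat1 292 CPM, Norad 223 CPM and Gm50321 215 CPM, and Neat1 alone held 32.4% ± 5.6 to 37.7% ± 3.99 of the members' counts by group. The remaining members of the first 20 by count were Gm47547 at 97.1, C130080G10Rik at 86.2, Gm5532 at 76.9, Mhrt at 51.7, Gm48161 at 50.2, Gm31251 at 49.1, Atcayos at 46.0, Gm10435 at 45.6, Peg13 at 45.3, A530058N18Rik at 37.9, Firre at 36.0, Gm46620 at 31.7, Gm15543 at 28.2, Gm20300 at 26.5 and Gm47283 at 26.4 CPM.

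The TPM of a gene with several transcripts depends on how the authors' quantification divided its reads. For Malat1, the 6983-base transcript took 19.9% ± 2.17 of the gene's TPM in TAC 332 hearts and 18.8% ± 3.23 in TAC vehicle hearts (SD, n = 5 each), and a transcript of 485 bases took the rest. The long form ranged from 16.4 to 24.2% in the TAC hearts and from 11.5 to 15.8% in the sham hearts, so the ranges did not overlap; this split was noticed in the data and not tested. For Neat1, the transcript of 20771 bases, the form that scaffolds paraspeckles, took between 1.22 and 1.98% of the gene's TPM in any heart, and the transcript of 3004 bases took 61.2 to 73.1% by group mean. The kit selects polyadenylated RNA, and the ends of Malat1 and of long Neat1 are made without a poly(A) tail, so their levels here are those of what the selection kept.

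The first question was what pressure overload did to these RNAs in vehicle-treated mice. With TAC, 21 of the 43 lncRNAs changed: 6 were higher and 15 lower in TAC vehicle than in sham vehicle hearts (edgeR's quasi-likelihood test, Benjamini-Hochberg adjusted p below 0.05 over 14047 genes), against a background of 26.4% of all genes tested (13.5% higher and 12.8% lower). As a share, 48.8% of the members were called, against 20% of the other 584 tested lncRNA genes and 33.4% of the other 7609 genes at or above 10 CPM. The median log2 fold change was -0.30 over the members and -0.01 over all genes tested. In 332-treated mice, TAC 332 against sham 332 hearts called 22 members, 6 higher and 16 lower, against a background of 23.8% (11.8% higher and 12.1% lower); the shares were 51.2% of members, 17.5% of other tested lncRNA genes and 29.8% of other genes at or above 10 CPM, with a median log2 fold change of -0.19 over the members. The 2 comparisons share no heart. They had 17 calls in common, 5 higher and 12 lower in both, which is 17 of the 21 vehicle-arm calls and 77.3% of the 22 332-arm calls. No share of all genes called in both arms is given here, so this overlap does not set these RNAs apart from other genes. By run, the first run alone called 23 members in the vehicle arm and 17 in the 332 arm, and the second run alone, with 2 hearts a group, called 2 in the 332 arm; the vehicle arm has no sham heart in the second run. In deposited TPM, a scaling added after the values were seen and given with no test, the median log2 ratio of TAC to sham over all genes tested was 0.39 in the 332 arm and 0.53 in the vehicle arm. Against a ratio of 0, 3 of the 22 called members had the opposite direction in TPM in the 332 arm (Norad, Peg13 and Gm33989) and 4 of the 21 in the vehicle arm (Atcayos, Peg13, Gm43672 and Mir22hg). Of these, Gm33989, at 2.03, lay above the median of all genes, and the others lay below it. The 208-base transcript of Gm33989 took 0 to 95.9% of its TPM in TAC 332 and 0 to 90.5% in sham 332 hearts. These TPM ratios hold no run term, and sham vehicle has no second-run heart. In first-run TAC vehicle hearts Atcayos had 6.91, 6.68 and 5.56 TPM, Peg13 1.72, 1.61 and 1.33, and Gm43672 2.18, 2.28 and 2.04. All of these lay below every sham vehicle heart, and the second-run TAC vehicle hearts lay above. Mir22hg overlapped sham vehicle in the first run.

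Cell-type markers moved in the same comparisons. Of 7 cardiomyocyte markers, 6 were lower in TAC 332 than in sham 332 hearts and 5 were lower in TAC vehicle than in sham vehicle hearts, and their sum was 45000 to 63300 CPM in TAC 332 hearts, 40500 to 58300 in TAC vehicle hearts, 50900 to 70700 in sham 332 hearts and 50600 to 51500 in sham vehicle hearts. Of 6 fibroblast markers, 5 were higher in TAC 332 and all 6 in TAC vehicle hearts, and their sum was 758 to 1800 CPM in TAC 332, 1000 to 1520 in TAC vehicle, 472 to 575 in sham 332 and 475 to 554 CPM in sham vehicle hearts. Of the other marker lists, 2 of 5 endothelial and 1 of 6 macrophage and leukocyte markers were higher in TAC vehicle than in sham vehicle hearts, 1 of 6 smooth muscle and pericyte markers (Cspg4) was higher in both TAC groups than in their sham groups, and 2 of 3 epicardial markers were lower in TAC 332 than in sham 332 hearts. Over all genes tested, 11.8% were higher and 12.1% lower in the 332 arm, and 13.5% higher and 12.8% lower in the vehicle arm. None of the cardiomyocyte and fibroblast markers was at 0. Their part in the changes of the lncRNAs was not tested, and in ventricle RNA fewer cells of a type and less RNA per cell cannot be told apart.

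**Figure D2:**
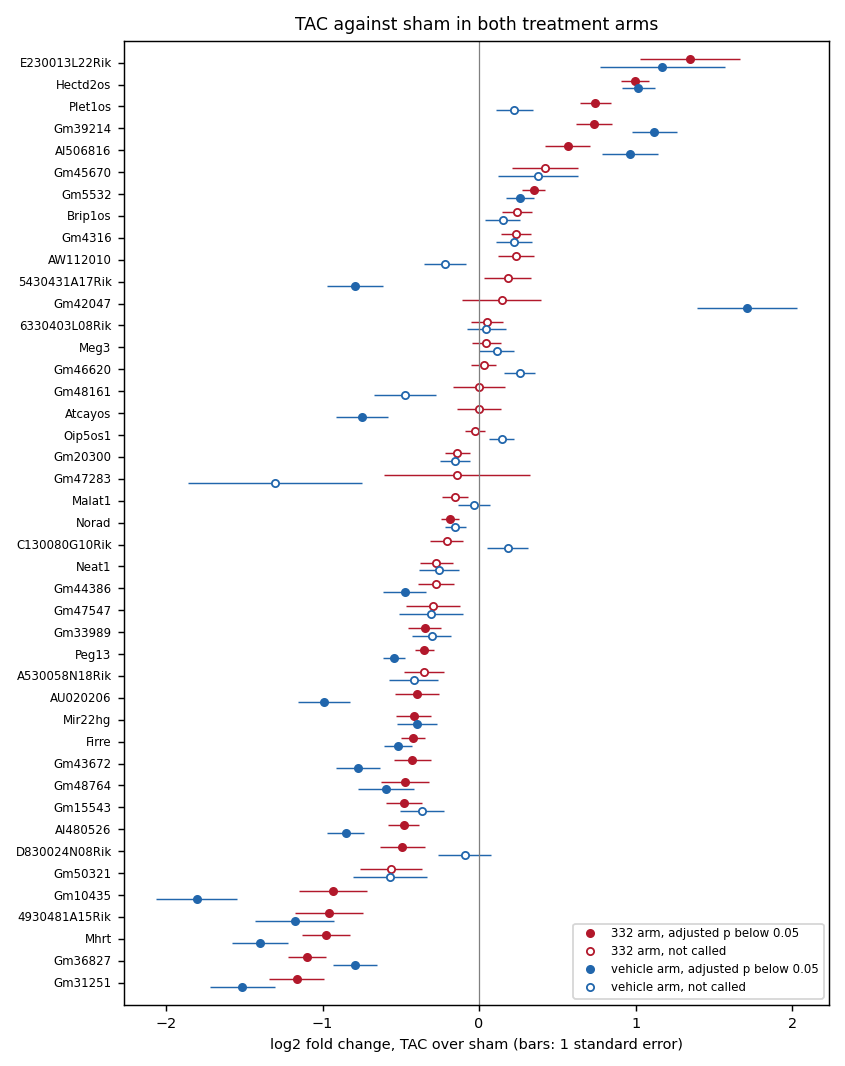
Log2 fold change of TAC over sham (horizontal axis, bars 1 standard error) for the 43 lncRNAs in the 332 arm (red) and the vehicle arm (blue), filled where the adjusted p was below 0.05. Mhrt, Gm31251, Gm10435, Gm36827 and 4930481A15Rik lie at the low end and E230013L22Rik, Hectd2os and Gm39214 at the high end in both arms; Gm42047 is high in the vehicle arm alone, at 1.71 against 0.14.

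Mhrt and Gm31251, both antisense to Myh7, fell in both arms, while Myh7, the slow myosin heavy chain that is re-expressed in stressed ventricle, rose. Mhrt had 34.6, 22.5, 25.5, 38.5 and 33 CPM in the TAC vehicle hearts, against 63.3, 72.2 and 79.5 CPM in the sham vehicle hearts. In the 332 arm it had 35.9, 32.5, 34.2, 30.2 and 60.6 CPM in the TAC hearts, against 62.7, 61.3, 74.3, 88.4 and 95.4 CPM in the sham hearts. The groups did not overlap in either arm, although the highest TAC 332 heart came within 1 CPM of the lowest sham 332 heart. Its log2 fold change was -1.40 ± 0.18 in the vehicle arm (standard error; adjusted p 8.25e-05) and -0.98 ± 0.15 in the 332 arm (adjusted p 0.000414). Gm31251 averaged 26.9 ± 4.94 CPM in TAC vehicle and 70.9 ± 5.17 CPM in sham vehicle hearts (SD, n = 5 and 3), and 34.1 ± 10.4 CPM in TAC 332 and 76.9 ± 15.8 CPM in sham 332 hearts (SD, n = 5 each), with log2 fold changes of -1.51 and -1.17 (adjusted p 0.000162 and 0.000385). Myh7 had 678, 3045, 1669, 2924 and 6007 CPM in TAC vehicle and 157, 236 and 260 CPM in sham vehicle hearts, and 927, 1428, 1461, 5306 and 1022 CPM in TAC 332 and 99.9, 136, 147, 165 and 291 CPM in sham 332 hearts, a log2 fold change of 3.11 and 3.51 (adjusted p 0.00237 and 0.000302). Myh6, the fast heavy chain of the adult mouse ventricle, fell by 0.34 and by 0.46 on the log2 scale (adjusted p 0.0425 and 0.00247). Both antisense RNAs moved against Myh7 in the same libraries in which reads of the overlap could not be told apart by strand.

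**Figure D3:**
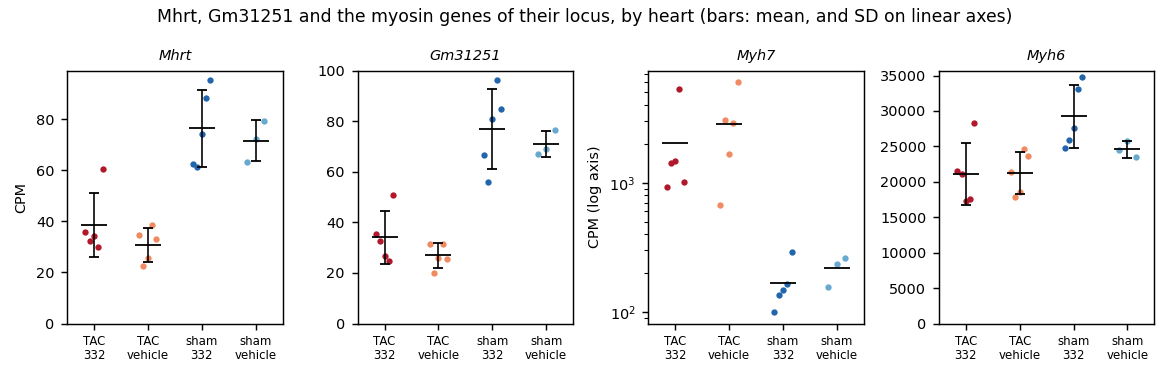
CPM by heart of Mhrt, Gm31251, Myh7 (log axis) and Myh6 in the 4 groups, with group means as bars and, on the linear axes, SDs. In both arms Mhrt and Gm31251 are lower, and Myh7 higher, in every TAC heart than in every sham heart.

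Several other RNAs fell in both arms. Gm10435 had 22.9, 21.4, 16.1, 30.2 and 15.6 CPM in TAC vehicle and 75.1, 78 and 87.5 CPM in sham vehicle hearts, the steepest fall of the vehicle arm (log2 fold change -1.80 ± 0.26, adjusted p 0.000273). In the 332 arm it had 43.9, 43.1, 29.8, 18.9 and 35.3 CPM in TAC hearts and 72.6, 58.3, 86, 57.1 and 52.6 CPM in sham hearts, a log2 fold change of -0.94 ± 0.22 (adjusted p 0.00647). No TAC heart reached the lowest sham heart of its arm. Gm36827, which shared no 31-base word with another gene, had 9.78, 10.2, 8.56, 6.22 and 7.78 CPM in TAC 332 and 19.4, 21.8, 17, 15.3 and 17.4 CPM in sham 332 hearts, and 11.2, 12, 8.13, 10.4 and 12 CPM in TAC vehicle and 18, 19.6 and 21.6 CPM in sham vehicle hearts. Its groups did not overlap, and its log2 fold change was -1.10 ± 0.12 in the 332 arm and -0.79 ± 0.14 in the vehicle arm (adjusted p 2.82e-06 and 0.000314). 4930481A15Rik averaged 7.07 ± 2.01 CPM in TAC 332 and 13.9 ± 2.01 CPM in sham 332 hearts, and 7.25 ± 2.38 CPM in TAC vehicle and 15.9 ± 3.16 CPM in sham vehicle hearts, with log2 fold changes of -0.96 and -1.18. AU020206 and AI480526 fell by 0.99 and 0.85 in the vehicle arm and by 0.40 and 0.48 in the 332 arm on the log2 scale. The 332-arm call of AU020206 (adjusted p 0.0471) was lost in 16 of 28 alternatives, among them with any of 12 hearts left out, at an adjusted p of up to 0.131 with a heart left out. Gm43672, Gm48764, Peg13, Firre and Mir22hg were also lower in both arms, and D830024N08Rik, Gm15543, Gm33989 and Norad were called lower in the 332 arm alone. Gm44386 was called lower in the vehicle arm (-0.48, adjusted p 0.0138), but not without sham vehicle heart 3 (adjusted p 0.0536). The call of Gm48764 was lost without TAC vehicle heart 3 or sham vehicle heart 1 or 3 in the vehicle arm (adjusted p 0.0543 to 0.0808), and without TAC 332 heart 3 or 4 or sham 332 heart 1, 2, 3 or 4 in the 332 arm (0.0521 to 0.0791). The 332-arm call of Gm33989 was lost without TAC 332 heart 3 or sham 332 heart 4 (adjusted p 0.0625 and 0.0538), and that of D830024N08Rik without sham 332 heart 3 (0.0556).

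The rising RNAs were fewer. Hectd2os, antisense to the ubiquitin ligase gene Hectd2, had 22.1, 18.6, 20.8, 24.7 and 19.4 CPM in TAC 332 and 10.1, 10.6, 10.5, 11.6 and 9.96 CPM in sham 332 hearts, and 21.6, 25.5, 24.6, 20.7 and 23.3 CPM in TAC vehicle and 10.8, 12.3 and 11.2 CPM in sham vehicle hearts. Every TAC heart was far above every sham heart, and the log2 fold change was 1.00 ± 0.09 and 1.02 ± 0.11, with the smallest adjusted p of the members in both arms (3.13e-07 and 1.81e-06). Hectd2, at 3.36 ± 0.438 CPM in TAC 332 and 2.11 ± 0.184 CPM in sham 332 hearts and picked here for its overlap after the values were seen, was called higher in the 332 arm at a log2 fold change of 0.67 (adjusted p 0.00477), and had 0.49 in the vehicle arm (adjusted p 0.0697). Of the 31-base words of Hectd2os, 44.2% stand on the opposite strand of Hectd2 transcripts. Gm39214 had 14.2, 14.7, 11.3, 11.9 and 13.6 CPM in TAC 332 and 7.89, 8.16, 8.91, 8.56 and 6.03 CPM in sham 332 hearts, and 14.4, 17.6, 12.7, 12.5 and 13.8 CPM in TAC vehicle and 7.05, 7.65 and 5.78 CPM in sham vehicle hearts, without overlap (log2 fold change 0.74 ± 0.12 and 1.12 ± 0.14). AI506816 rose by 0.57 and 0.96, and Gm5532 by 0.35 and 0.26 on the log2 scale. The vehicle-arm call of Gm5532 (adjusted p 0.0341) was lost in 6 of 27 alternatives, among them with any 1 of the 3 sham vehicle hearts or TAC vehicle heart 2 or 3 left out, at an adjusted p of up to 0.116.

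**Figure D4:**
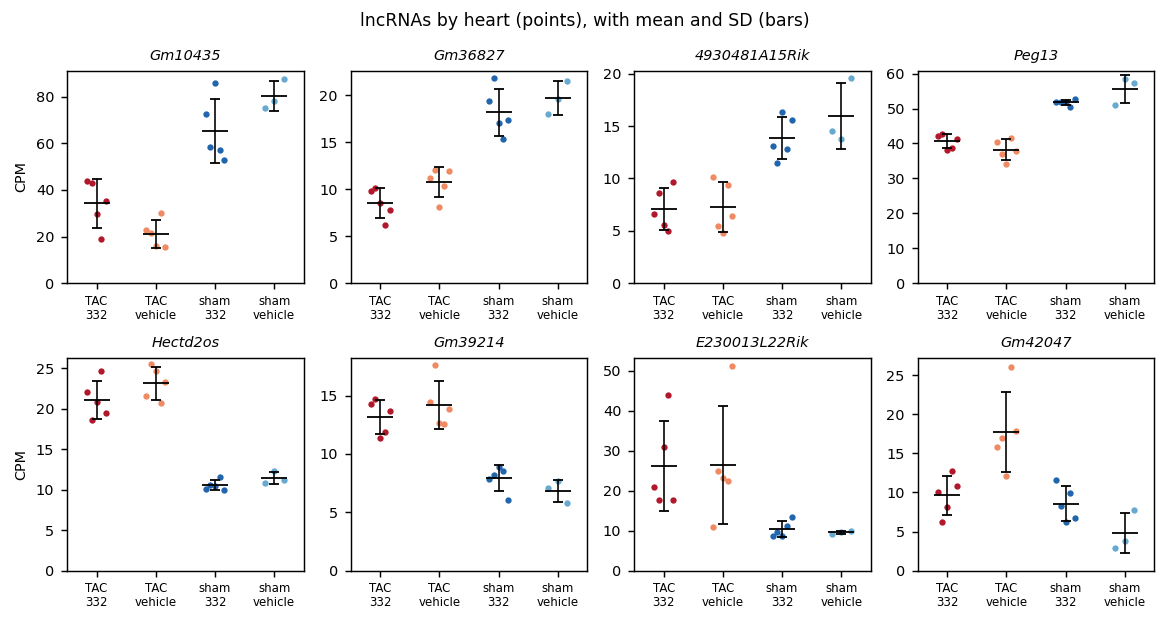
CPM by heart of 4 lncRNAs that fell (Gm10435, Gm36827, 4930481A15Rik, Peg13) and 4 that rose (Hectd2os, Gm39214, E230013L22Rik, Gm42047), with the mean and SD of each group. The TAC hearts of Gm10435, Gm36827, 4930481A15Rik and Peg13 lie under the sham hearts of their arm, those of Hectd2os and Gm39214 above them, and the TAC 332 hearts of Gm42047 (mean 9.63 CPM) lie among the sham 332 hearts (mean 8.57 CPM).

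E230013L22Rik, antisense to the GTPase gene Rab20, varied most between hearts of all members, with a coefficient of variation of 64.7% over the 18 hearts. It had 20.9, 17.6, 30.9, 43.9 and 17.6 CPM in TAC 332 and 8.61, 9.56, 8.74, 11.1 and 13.5 CPM in sham 332 hearts, and 11, 24.9, 23.2, 22.4 and 51 CPM in TAC vehicle and 9.09, 9.74 and 9.85 CPM in sham vehicle hearts. All TAC hearts were above the sham hearts of their arm, with heart 4 of TAC 332 and heart 5 of TAC vehicle far above the rest. The log2 fold change was 1.35 ± 0.32 (adjusted p 0.00777) and 1.17 ± 0.40 (adjusted p 0.0438). The vehicle-arm call was lost in 14 of 27 alternatives, among them with any of 12 hearts left out, at an adjusted p of up to 0.118. Gm42047 was high in the vehicle arm: 15.8, 17, 12.1, 26 and 17.9 CPM in TAC vehicle and 2.9, 3.74 and 7.7 CPM in sham vehicle hearts (log2 fold change 1.71 ± 0.32, adjusted p 0.00144). In the 332 arm it had 10.1, 6.24, 8.18, 12.8 and 10.8 CPM in TAC hearts and 11.7, 8.32, 6.27, 9.95 and 6.69 CPM in sham hearts (log2 fold change 0.14, adjusted p 0.733). Of its 31-base words, 72.3% also occur in other genes, and its counts were whole in no heart. Plet1os was called in the 332 arm alone, at 16.2 ± 2.42 CPM in TAC and 9.68 ± 1.22 CPM in sham hearts (SD, n = 5 each; log2 fold change 0.74 ± 0.10, adjusted p 2.89e-05). In the vehicle arm its log2 fold change was 0.23 ± 0.12 (adjusted p 0.176).

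Among RNAs of nuclear bodies and chromatin, 4 of 17 listed were members: Neat1, Malat1, Norad and Firre. Firre, an X-linked RNA that organises chromatin, fell in both arms: it averaged 31 ± 2.58 CPM in TAC 332 and 41.6 ± 2.93 CPM in sham 332 hearts (SD, n = 5 each; log2 fold change -0.42, adjusted p 0.000506), and 31.1 ± 3.79 CPM in TAC vehicle and 45.5 ± 1.58 CPM in sham vehicle hearts (SD, n = 5 and 3; -0.52, adjusted p 0.00033). In TPM, Firre averaged 7.32 ± 1.16 in TAC 332 and 7.75 ± 1.16 in sham 332 hearts, and 7.24 ± 1.99 in TAC vehicle and 7.51 ± 0.152 in sham vehicle hearts, within the spread of the hearts. The TAC vehicle hearts had 6.00, 6.77 and 4.85 TPM in the first run and 9.14 and 9.42 in the second. The sham vehicle hearts, all of the first run, had 7.55, 7.34 and 7.63 TPM, above each first-run TAC vehicle heart. Norad had 201.8, 220.1, 195.7, 191.8 and 222.8 CPM in TAC 332 and 235, 235, 233, 232 and 241 CPM in sham 332 hearts. All 5 TAC hearts were below the sham hearts, by little: the log2 fold change was -0.19 ± 0.06 (adjusted p 0.0218). In the vehicle arm, where the ranges did not overlap either, it was -0.15 ± 0.07 and not called (adjusted p 0.111). The 332-arm call of Norad was lost in 8 of 28 alternatives, among them without TAC 332 heart 3 or 4 or sham 332 heart 5 (adjusted p 0.0542 to 0.0573), and 43.9% of the 31-base words of Norad also occur in its pseudogene Gm7292. In TPM, the mean of Norad was higher with TAC, at 12.3 ± 1.67 in TAC 332 and 9.66 ± 2.05 in sham 332 hearts. It was 12.1 ± 4.26 in TAC vehicle and 8.70 ± 0.442 in sham vehicle hearts. In the 332 arm each TAC heart lay above the sham hearts of its run. The first-run TAC vehicle hearts, at 9.26, 9.69 and 8.39 TPM, overlapped the sham vehicle hearts at 8.25, 8.73 and 9.13 TPM. The second-run TAC vehicle hearts, which have no sham vehicle counterpart, had 15.37 and 17.96 TPM. The higher vehicle-arm mean therefore rests largely on the second run. Neat1 had 910.3, 732, 961, 1245 and 1001 CPM in TAC 332 and 1096, 1365, 909, 1111 and 1333 CPM in sham 332 hearts, and 1117, 1184, 996, 1247 and 1475 CPM in TAC vehicle and 1247, 1269 and 1462 CPM in sham vehicle hearts, overlapping in both arms. Its log2 fold changes of -0.27 ± 0.11 and -0.26 ± 0.13 were not called (adjusted p 0.0697 and 0.153). Malat1 averaged 269 ± 13.1 CPM in TAC 332 and 299 ± 33.6 CPM in sham 332 hearts, and 297 ± 38.4 CPM in TAC vehicle and 313 ± 34.1 CPM in sham vehicle hearts, and was not called (adjusted p 0.198 and 0.857).

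The mRNAs of proteins of the bodies that hold Neat1 and Malat1 were lower in part. Of 11 tested paraspeckle and speckle proteins, 7 were lower in TAC 332 than in sham 332 hearts and 5 were lower in TAC vehicle than in sham vehicle hearts, with none higher, at a median log2 fold change of -0.21 and -0.24. Son, a speckle scaffold, fell by 0.37 and 0.31 and Matr3, a nuclear matrix protein, by 0.29 and 0.25 on the log2 scale. Of 10 nonsense-mediated decay factors, 2 were lower in the 332 arm and 1 in the vehicle arm. Upf3b was the one lower in both, at -0.40 and -0.46 on the log2 scale. Of 8 snoRNP proteins, 1 was higher in the 332 arm (Nhp2, 0.35) and 2 were lower in the vehicle arm (Snu13, -0.29, and Dkc1, -0.31). Over all genes tested, 11.8% were higher and 12.1% lower in the 332 arm, and 13.5% higher and 12.8% lower in the vehicle arm. Against those shares, the small counts of decay factors and snoRNP proteins say little.

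Of 10 listed imprinted RNAs, which are expressed from one parental allele, Peg13 and Meg3 were members. Peg13, which lies within the brain-imprinted Trappc9 locus, had 42, 42.8, 38.3, 38.7 and 41.3 CPM in TAC 332 and 51.8, 51.9, 52, 50.6 and 52.7 CPM in sham 332 hearts, and 40.4, 36.9, 34.2, 41.7 and 38 CPM in TAC vehicle and 50.9, 58.3 and 57.4 CPM in sham vehicle hearts. The hearts of each group lay close together and those of TAC and sham did not overlap. Its log2 fold change was -0.35 ± 0.06 and -0.55 ± 0.07 (adjusted p 0.000337 and 2.16e-05). In TPM its mean was higher with TAC, at 2.55 ± 0.522 in TAC 332 and 2.35 ± 0.603 in sham 332 hearts, and 2.31 ± 1.05 in TAC vehicle and 2.12 ± 0.22 in sham vehicle hearts. In the first run, however, the TAC vehicle hearts had 1.72, 1.61 and 1.33 TPM, below the sham vehicle hearts at 1.89, 2.13 and 2.33 TPM. The second-run TAC vehicle hearts, which have no sham vehicle counterpart, had 3.23 and 3.65 TPM. Meg3, the maternally expressed RNA of the Dlk1 domain, averaged 11.6 ± 1.61 CPM in TAC 332 and 11.3 ± 2.46 CPM in sham 332 hearts, and 12.4 ± 1.38 CPM in TAC vehicle and 10.4 ± 0.26 CPM in sham vehicle hearts, and was not called (adjusted p 0.77 and 0.487). H19, at a mean of 8.4 CPM, was under the threshold. Of 10 tested coding partners of named lncRNA loci, Myh7 and Myh6 included, 2 were higher and 4 lower in the 332 arm, and 3 were higher and 2 lower in the vehicle arm. The shares over all genes tested were 11.8% higher and 12.1% lower in the 332 arm, and 13.5% and 12.8% in the vehicle arm. Cdkn1c, a growth inhibitor of an imprinted domain, fell by 0.70 and 0.76 on the log2 scale (adjusted p 0.000863 and 0.0018), and Igf2, a growth factor, fell by 0.74 in the 332 arm (adjusted p 0.00328) and was not called in the vehicle arm (-0.26, adjusted p 0.343).

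A list of 24 symbols drawn up for snoRNA host and terminal oligopyrimidine RNAs held 2 members, Oip5os1 and Mir22hg. Neither is a snoRNA host, and Oip5os1 also stood there under its other name, Cyrano. None of the Gas5 and Snhg genes on the list was a member. Of 22 listed microRNA hosts, Meg3 and Mir22hg were members. Oip5os1, with the miR-7 matches shown above, was among the steadiest members, with a coefficient of variation of 9.58% over the 18 hearts. It averaged 305 ± 29.8 CPM in TAC 332 and 311 ± 39.3 CPM in sham 332 hearts, and 323 ± 31.4 CPM in TAC vehicle and 311 ± 18.8 CPM in sham vehicle hearts (adjusted p 0.826 and 0.187). Mir22hg, the host of miR-22-3p, had 13.3, 12.4, 12.9, 9.46 and 10.7 CPM in TAC 332 and 15.2, 17.1, 13.4, 13.4 and 18.5 CPM in sham 332 hearts, and 13.2, 14.1, 15.1, 10.8 and 11 CPM in TAC vehicle and 14.7, 19.1 and 19.7 CPM in sham vehicle hearts. The 332-arm groups did not overlap, and those of the vehicle arm did. Its log2 fold change was -0.42 ± 0.11 and -0.40 ± 0.13 (adjusted p 0.00925 and 0.0285). The vehicle-arm call of Mir22hg was lost in 4 of 27 alternatives, among them without sham vehicle heart 2 or 3 (adjusted p 0.105 to 0.14). Mature miR-22 was not measured, since the kit does not capture RNAs of that size.

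Of 15 listed cardiac and vascular RNAs, 3 were members: Mhrt, Meg3 and Gm15543. Gm15543, the member with the highest TPM, averaged 24.8 ± 5.94 CPM in TAC 332 and 34.9 ± 7.45 CPM in sham 332 hearts (SD, n = 5 each). It averaged 24.8 ± 3.83 CPM in TAC vehicle and 28.5 ± 3.88 CPM in sham vehicle hearts (SD, n = 5 and 3). By edgeR its log2 fold change was -0.48 ± 0.12 in the 332 arm (adjusted p 0.00531) and -0.36 ± 0.14 in the vehicle arm (adjusted p 0.0618). Its 332-arm call was lost within either run alone, at a log2 fold change of -0.38 in the first run and -0.60 in the second. It was also called for the run term.

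The second question was what 332 did. In TAC hearts, 332 against vehicle called none of the 43 members by edgeR's quasi-likelihood test, against a background of 0.427% of all genes tested (60 genes, 0.135% higher and 0.292% lower). At an unadjusted p below 0.05 there were 7 (16.3%, against 12.7% of all genes tested), and DESeq2 called 3. The backgrounds are those of edgeR. No share over all genes is given for DESeq2, so its calls, here and below, cannot be set against one. The smallest adjusted p was 0.0932, for 5430431A17Rik, which had 14.2, 18.6, 18.1, 18 and 19.4 CPM in TAC 332 and 10.9, 11.7, 8.5, 17.6 and 10.5 CPM in TAC vehicle hearts, overlapping through TAC vehicle heart 4 alone (log2 fold change 0.59 ± 0.15). Gm42047 followed at -0.89 ± 0.24 (adjusted p 0.124), Atcayos at 0.46 ± 0.14 (0.165), Gm36827 at -0.35 ± 0.12 (0.208), Gm10435 at 0.66 ± 0.23 (0.223) and Plet1os at 0.25 ± 0.10 (0.264), and Neat1, at -0.32 ± 0.11, was the other of the 7. DESeq2 called 5430431A17Rik, Gm42047 and Atcayos (adjusted p 0.0172, 0.0126 and 0.0446). Without TAC vehicle heart 4, edgeR called 5430431A17Rik and Gm10435 (adjusted p 0.0229 and 0.0469), and without sham 332 heart 2 it called Atcayos (adjusted p 0.0434). No member had non-overlapping CPM ranges between TAC 332 and TAC vehicle hearts, against 1.32% of all genes.

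**Figure D5:**
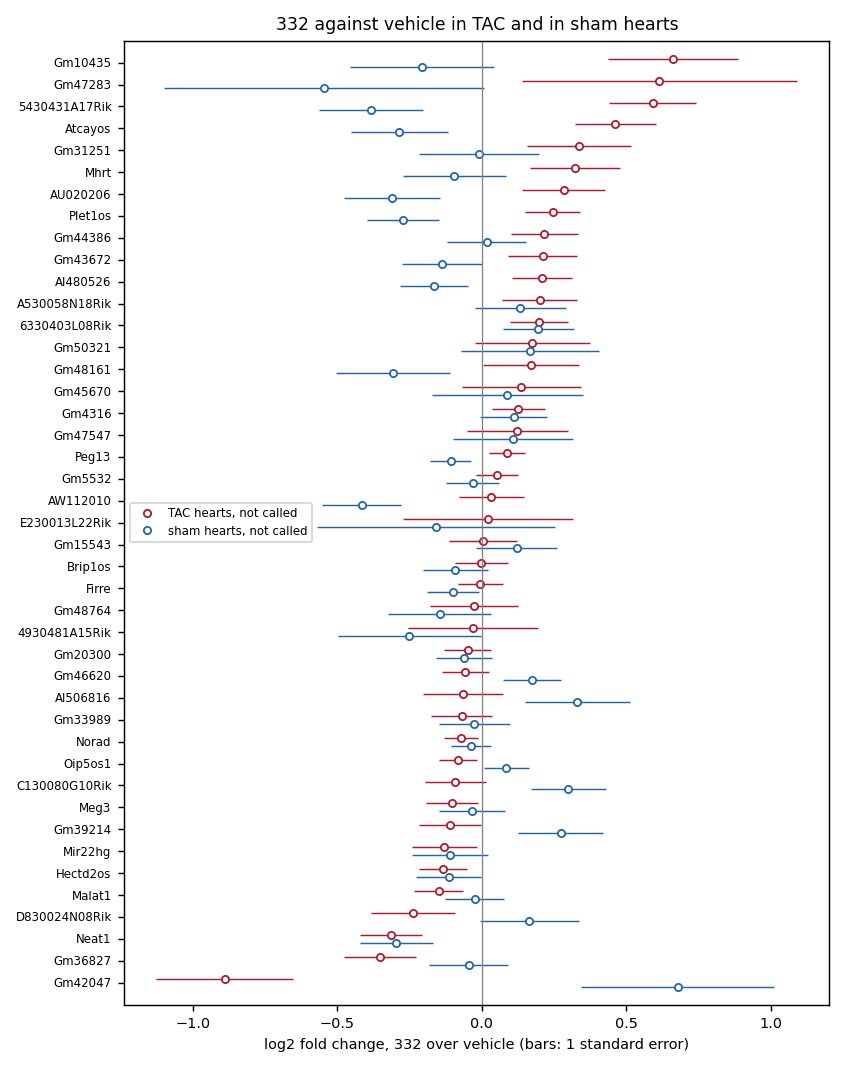
Log2 fold change of 332 over vehicle (horizontal axis, bars 1 standard error) for the 43 lncRNAs in TAC hearts (red) and in sham hearts (blue); open points, since edgeR called none, although DESeq2 called 5430431A17Rik, Gm42047 and Atcayos in TAC hearts. Gm10435 at 0.66 and 5430431A17Rik at 0.59 lie at the high end in TAC hearts and Gm42047 at -0.89 at the low end.

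In sham hearts, 332 against vehicle called none of the members, against a background of 0.00712% (1 gene). At an unadjusted p below 0.05 there were 5 (11.6%, against 4.88% of all genes tested), DESeq2 called 0, and the smallest adjusted p was 0.796 for AW112010 (-0.42 ± 0.14), an RNA known from mouse immune cells. The CPM ranges of sham 332 and sham vehicle hearts did not overlap for 3 members, 2 higher and 1 lower, against 5.33% of all genes. The difference of the 332 effects, TAC minus sham, was called for no member, against a background of 0.0641% (9 genes, 0.0214% higher and 0.0427% lower), with 10 at an unadjusted p below 0.05 (23.3%, against 10.0% of all genes tested) and 2 called by DESeq2, 5430431A17Rik and Gm42047 (adjusted p 0.013 and 0.00486). The same contrast is the difference between the TAC effects of the 2 arms. For 5430431A17Rik it was 0.98 ± 0.24 (adjusted p 0.118): TAC minus sham was 0.18 in the 332 arm and -0.79 in the vehicle arm. For Gm42047 it was -1.57 ± 0.41 (adjusted p 0.17), and for Atcayos 0.75 ± 0.22 (adjusted p 0.214). Atcayos had 45.6, 41.2, 48.7, 44.6 and 63.8 CPM in TAC 332 and 52.8, 29.8, 45.5, 63.3 and 54.6 CPM in sham 332 hearts, and 34.4, 30.9, 29, 48.2 and 35.4 CPM in TAC vehicle and 59.6, 48.3 and 51.8 CPM in sham vehicle hearts. It was called lower with TAC in the vehicle arm (-0.75, adjusted p 0.00405) and had a log2 fold change of 0.00 in the 332 arm. By edgeR's quasi-likelihood test, no member called in one arm alone passed the test of the difference, whereas DESeq2 called it for 5430431A17Rik and Gm42047. Erythroid markers differed in the same TAC comparison: their sum was 837 to 1870 CPM in TAC 332 hearts and 378 to 580 CPM in TAC vehicle hearts, with none of the 3 called or at 0, and their part in these values was not tested.

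Since 332 acts on ERRs, the promoters were searched for the ERR binding motif AAGGTCA on both strands, in RefSeq promoters (GRCm38.p6) of 300 bases, 250 before the start and 50 after. A promoter was found for 26 members, 32 in all, and 1 of these 32 held the motif, against 4.72% of all 32851 promoters in the table. The match, on the minus strand in capitals, is in one of the 2 Meg3 promoters (GRCm38.p6 chr12:109545148-109545447, plus strand), and Meg3 was not called for 332 (log2 fold change -0.10 ± 0.09 in TAC hearts, adjusted p 0.683, and -0.03 ± 0.11 in sham hearts, adjusted p 1).
Meg3 promoter: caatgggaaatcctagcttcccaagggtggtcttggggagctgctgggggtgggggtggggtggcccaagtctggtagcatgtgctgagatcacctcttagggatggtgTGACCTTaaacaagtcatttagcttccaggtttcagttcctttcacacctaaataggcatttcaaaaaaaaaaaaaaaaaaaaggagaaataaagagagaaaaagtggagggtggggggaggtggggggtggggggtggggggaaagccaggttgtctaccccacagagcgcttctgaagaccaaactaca

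Sequence shared with other genes sets how far some members can be told from their copies. All 43 genes were found in GENCODE M21 (GRCm38) by gene ID, and 114 of 118 transcripts had the same ID and length there. In 8 members over 50% of the 31-base words also occur in other genes, on either strand, in 19 under 10%, and in 6 none: Peg13, Gm15543, Gm45670, Gm43672, Gm36827 and AW112010. Gm48764 shared 96.2%, Gm48161 91.3%, Gm46620 90.2% and Gm50321 83.3%. Gm50321 and Gm47547, on chromosomes 19 and 14, are near copies, and 67.4% of the words of Gm50321 occur in Gm47547. Gm50321 averaged 188 ± 52.3 CPM in TAC 332 and 276 ± 26.8 CPM in sham 332 hearts, and 166 ± 37.3 CPM in TAC vehicle and 258 ± 29.4 CPM in sham vehicle hearts. Its ranges did not overlap in either arm, and it was not called (log2 fold change -0.57 ± 0.20 and -0.57 ± 0.24, adjusted p 0.0535 and 0.09). Gm47547 had -0.29 ± 0.17 and -0.31 ± 0.21 (adjusted p 0.248 and 0.3). A530058N18Rik and C130080G10Rik, neighbours on chromosome 2, shared 48.8% of the words of A530058N18Rik. The counts of 6 members (Gm47547, C130080G10Rik, Gm48161, A530058N18Rik, Gm4316 and Gm42047) were whole in none of the 18 hearts, and 18 members had whole counts in every heart (within 0.01).

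In the 332 arm 51.2% of the 43 members and 23.8% of all genes tested were called, and in the vehicle arm 48.8% and 26.4%. No test set the counts of the following sets against these shares. Of the 8 members with mostly shared words, 2 were called in the 332 arm and 3 in the vehicle arm. Of the 12 members whose exons lie opposite exons of a coding gene, 8 were called in each arm, with partners such as Myh7 for Mhrt and Gm31251, Hectd2 for Hectd2os, Rab20 for E230013L22Rik, Plet1 for Plet1os, Itfg1 for Gm39214 and Drap1 for 4930481A15Rik. Reads of these overlaps cannot be told apart by strand. Over all members the CPM ranges of TAC 332 and sham 332 hearts did not overlap for 17, 5 higher and 12 lower, against 11.1% of all genes, and those of TAC vehicle and sham vehicle hearts for 23, 7 higher and 16 lower, against 27.9%. The log2 fold change of TAC had the same sign in both arms for 38 of the 43, a count given without the share over all genes. Gm47283, on chromosome Y in GENCODE M21, which lists it as protein coding where the deposited annotation has lncRNA, had the widest spread after E230013L22Rik (coefficient of variation 58.0%) and had 26.9, 8.69, 26.5, 56 and 16.9 CPM in TAC 332, 21.1, 15.1, 8.13, 17 and 24 in TAC vehicle, 38.5, 16.7, 15.6, 17.4 and 59 in sham 332 and 47.3, 36.2 and 20.6 CPM in sham vehicle hearts. Its groups overlapped throughout, and it was called in no comparison. The remaining members called in no comparison by edgeR were Gm48161, Gm46620, Gm20300, Gm4316, Gm45670, 6330403L08Rik, Brip1os, AW112010, A530058N18Rik and C130080G10Rik.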

How the data were processed

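RNA-seq of mouse left ventricle was analysed in 18 libraries. The estimated counts and TPM values per transcript were made by the authors with fastp and Salmon, per the submitters' processing notes, which also name DESeq2; versions and the mouse build are not given in the sources used here. Per the labels' protocols, libraries were made with a TruSeq v2 kit, which selects poly(A) RNA and does not mark strand. Transcript values were summed per gene. Deposited expected counts were rounded to whole numbers (7.43% of gene values were not whole) and fitted with edgeR 4.0.16 (R 4.3.3). Genes were kept by filterByExpr with a minimum count of 10, and TMM factors were 0.884 to 1.15. The quasi-likelihood test over 14047 genes had the 4 groups and the run, read from the file names, as terms, with Benjamini-Hochberg adjustment. A call is an adjusted p below 0.05. For the membership rule, mean CPM over hearts is the estimated count over the library total; CPM of genes per heart, per group and in ranges is also scaled by the TMM factors, and marker sums are not. Errors marked ± are SDs of levels and standard errors of log2 fold changes. The members, lists and tests were chosen with earlier results of these data known.

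Named were the 20 members with the highest CPM, in each comparison up to 6 called members with the largest rise and up to 6 with the largest fall, members on the class lists, and the 4 genes on each side of the 10 CPM threshold; other members are named where a call or flag concerns them. Neighbours, shared 31-base words and transcript stretches come from GENCODE M21 (GRCm38), and promoters and miRNAs from RefSeq (GRCm38.p6). The fit was tested on simulated data. Alternatives were other size factors, filters, DESeq2 1.42.0, no run term, a replicate block, single runs, only the groups compared, and each heart left out. Some results are not reported here.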

Additional observations from a re-analysis of the deposited data

Results flagged for a closer look

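In 11 of 129 sets of a member and a group of 5 hearts, 1 heart stood apart from the other 4 by Dixon's 95% criterion on CPM; chance gives about 1 in 20, which is 6.45 of 129. Gm5532 was high in TAC 332 heart 3, at 100.0 CPM, against 78.0 to 83.3 CPM in the other hearts of the group. Gm5532 was low in sham 332 heart 2, at 58.8 CPM, against 67.7 to 70.0 CPM in the other hearts of the group. Mhrt was high in TAC 332 heart 5, at 60.6 CPM, against 30.2 to 35.9 CPM in the other hearts of the group. Gm48161 was low in TAC 332 heart 2, at 32.4 CPM, against 51.7 to 56.4 CPM in the other hearts of the group. A530058N18Rik was high in TAC 332 heart 5, at 54.0 CPM, against 29.3 to 34.0 CPM in the other hearts of the group. Gm45670 was high in sham 332 heart 4, at 22.7 CPM, against 17.6 to 18.5 CPM in the other hearts of the group. 5430431A17Rik was low in TAC 332 heart 1, at 14.2 CPM, against 18 to 19.4 CPM in the other hearts of the group. Gm43672 was high in TAC vehicle heart 4, at 14.9 CPM, against 9.71 to 11 CPM in the other hearts of the group. D830024N08Rik was low in TAC 332 heart 4, at 5.79 CPM, against 10.1 to 11.1 CPM in the other hearts of the group. D830024N08Rik was high in sham 332 heart 3, at 17.7 CPM, against 11.6 to 13.3 CPM in the other hearts of the group. AW112010 was low in TAC 332 heart 1, at 7.04 CPM, against 11 to 12.5 CPM in the other hearts of the group. TAC 332 heart 5 was also the highest of its group for Gm31251 (50.9 CPM).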

How the results depend on the processing

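With TAC in the vehicle arm, the 21 calls became 16 to 25 with 1 heart left out and 20 to 28 under the other alternatives. In the 332 arm, the 22 calls became 18 to 26 with 1 heart left out, 17 to 27 under the other alternatives with more than 2 hearts a group, and 2 in the second run alone, which has 2 hearts a group. For 332 against vehicle in TAC hearts, 0 members were called, against 8 with no low-count filter, 3 by DESeq2, 1 with only the groups compared in the fit, and 0 to 2 with 1 heart left out. In sham hearts 0 became 2 with no low-count filter, and for the difference of effects 0 became 8 with no low-count filter and 2 by DESeq2; with 1 heart left out both gave 0 throughout. By the ratio of mean deposited TPM, an alternative chosen after seeing the data, the log2 value turned to 0.351 for Norad, 0.119 for Peg13 and 2.03 for Gm33989 in the 332 arm, and to 0.072 for Atcayos, 0.124 for Peg13, 0.002 for Gm43672 and 0.064 for Mir22hg in the vehicle arm. These ratios hold no run term, and sham vehicle has no heart in the second run. The causes of these shifts were not tested. Of the 43 calls made with TAC, 18 were kept under every alternative fit, 33 under every alternative fit that keeps both runs, and 0 reversed in a fit.

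With the replicate number as a block in place of the run term, 20 members were called in the vehicle arm and 21 in the 332 arm, and 0 for 332 in TAC hearts, for 332 in sham hearts and for the difference of effects. Same-numbered hearts did not deviate together (24 pairs, median r -0.06, from -0.29 to 0.06), and neither did differently numbered ones (42 pairs, median r -0.01). Since the group and run means of few hearts were removed first, this cannot show whether the numbers pair the hearts. Sham vehicle hearts number 3, all from the first run.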
